A study of Mus musculus with 18 samples.

Results

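The 10 genes described here encode apolipoproteins, the protein components of blood lipoproteins, and the transfer protein that loads lipid onto one of them: Apoa1, Apoa2, Apoa4, Apoa5, Apob, Apoc3, Apoe, Apoh, Apom and Mttp. They were chosen by symbol out of 18193 genes named on the array, and each gene was read from its brightest probe set, by the mean of all 18 arrays, among the sets annotated to that gene alone. The study looked at kidney and liver of male C57BL6 mice after intraperitoneal D-galactosamine (GalN), an amino sugar toxic to hepatocytes, at 4.5 g per kg. The groups were liver at 24 h after GalN, liver at 48 h after GalN and sham liver (saline, taken at 24 h), and the same 3 groups for kidney, with 3 arrays in each of the 6 groups. No sham group was taken at 48 h, so every comparison of 48 h with sham also compares times after injection. The RNA came from pieces of whole organs perfused in place, and therefore from all their cell types. The design gives 3 mice per group. Its wording on equal amounts of RNA from 3 mice could also be read as pooling, and the arrays are taken here as separate mice. If they are not, the p-values measure technical spread only.

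Lipoproteins carry triglyceride and cholesterol through plasma. In the liver, apolipoprotein B is loaded with lipid in the endoplasmic reticulum by microsomal triglyceride transfer protein (Mttp) and leaves the hepatocyte in very low density lipoprotein (VLDL), whereas apolipoprotein A-I is the main protein of high density lipoprotein (HDL). The smaller apolipoproteins move between particles and set how fast triglyceride is hydrolysed and by which receptors remnants are taken up. Most of these proteins in plasma come from the liver. The kidney makes apolipoprotein M in the proximal tubule, and its tubule cells recover filtered apolipoproteins through the endocytic receptors megalin (Lrp2) and cubilin (Cubn).

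Values are log2 gcRMA expression values, on which a difference of 1 is a 2-fold difference. The array medians lay between 2.36 and 2.43, the lowest value was 2.213 and the highest was 16.93. Arrays of the same group correlated across probe sets with r of 0.983 to 0.998. The log2 gap between 3′ and 5′ actin control sets is a sign of RNA quality. It was 1.77 to 1.95 in livers at 24 h and 1.48 to 1.86 in sham livers. Livers at 48 h had 1.70 in array A, 1.76 in array B and 2.56 in array C. In kidneys the gap was 1.48 to 1.64 at 24 h, 1.63 to 1.75 at 48 h and 1.72 to 2.02 in sham. Its part in the liver differences was not tested. None of the 10 measured hepatocyte markers was at the floor throughout a liver group, and none of the 10 proximal tubule markers throughout a kidney group.

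In sham mice, all 10 genes were higher in liver than in kidney (limma with Benjamini-Hochberg adjustment, adjusted p from 7.2e-15 for Apoa2 to 3.83e-08 for Apoa4), where 47.6% of all 12453 genes tested were called in either direction and 18.9% were called higher in liver. Of those calls, 39.7% were higher in liver, against 52.9% after quantile normalization and 59.5% after centring each array on its median. Apom had the smallest difference of the 10, with 14.04, 13.90 and 13.74 in sham livers and 11.69, 11.66 and 11.25 in sham kidneys, a 5.13-fold difference (log2 2.36 ± 0.142 SE). Mttp was 27.6-fold, Apoe 31.5-fold, Apob 39.3-fold, Apoh 87.3-fold, Apoa4 149-fold, Apoc3 151-fold and Apoa2 215-fold higher in sham liver. Apoa1 and Apoa5 were at background in most kidney arrays. Apoa1 read 3.67, 3.09 and 2.32 in sham kidneys, and sham liver was at least 10100-fold higher. Apoa5 was at least 1990-fold higher in sham liver. Their kidney values are given no fold change below.

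In liver, Mttp was the 1 gene of the 10 that limma called at 24 h against sham, and it was lower, while 32.9% of the 12062 genes tested were called in either direction and 15% were called lower. At 48 h Mttp was within or above the sham range, and Apoa2, Apoc3 and Apoe were called, all lower by 1.22-fold to 1.32-fold, with 10.2% of all genes called and 3.94% called lower. The share of higher genes among all calls was 54.5% at 24 h and 61.4% at 48 h, and with median centring 43.3% and 41.9%. Between the times, at 48 h against 24 h, Mttp was higher and Apoa2, Apoc3, Apoe and Apoh were lower, 5 of 10, with 27.8% of all genes called. The median difference of the 10 genes was 0.01 at 24 h and -0.17 at 48 h against sham, and that of all genes tested was 0.01 and 0.03. The comparisons of 24 h and of 48 h with sham share the sham arrays. In whole tissue, fewer cells of a type and less RNA per cell cannot be told apart.

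**Figure D1:**
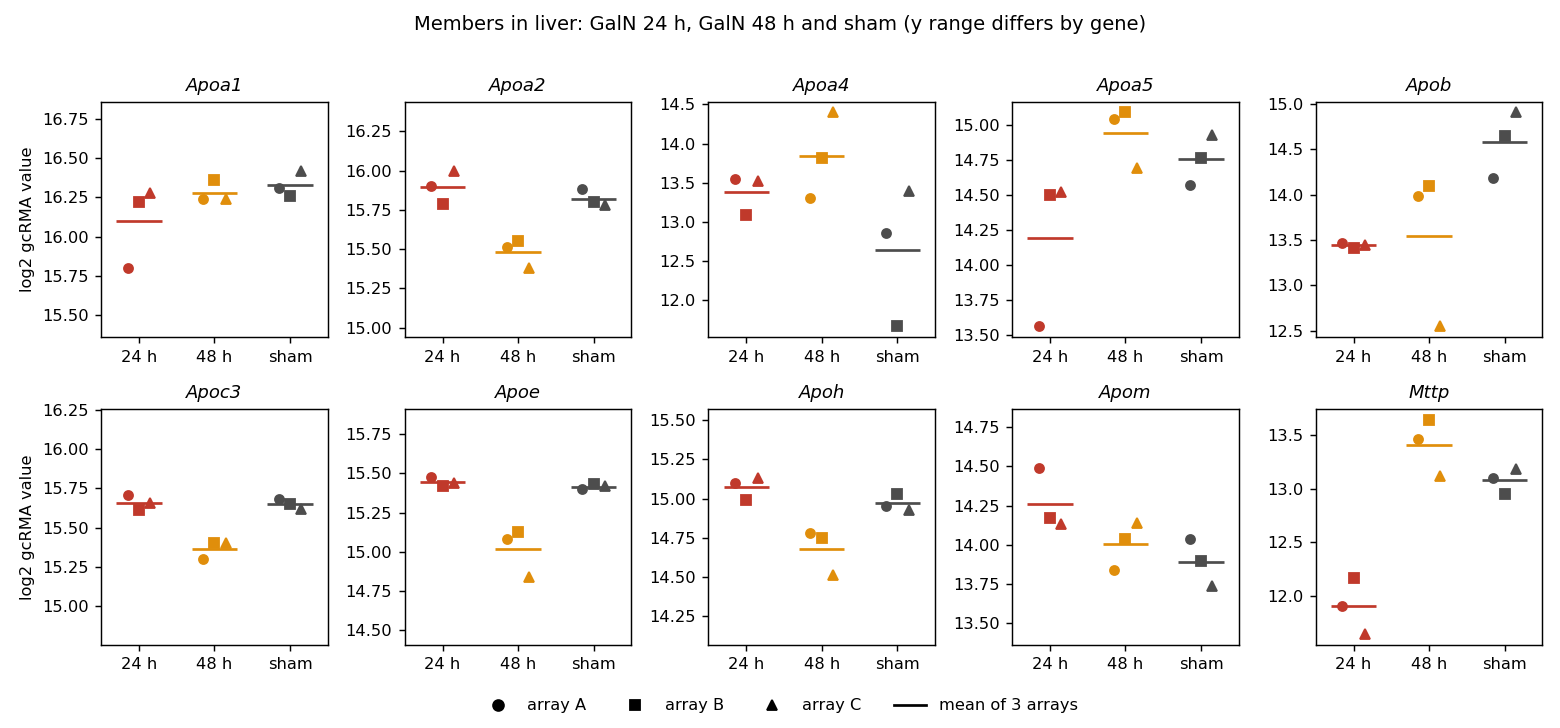
Log2 gcRMA value of each of the 10 genes (y axis, range differs by gene) in liver at 24 h, at 48 h and in sham, with 1 point per array (circle A, square B, triangle C) and a line at the mean of 3 arrays. The 3 Mttp values at 24 h lie below all other livers, and the 48 h values of Apoa2, Apoc3, Apoe and Apoh lie below those of 24 h and sham.

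Mttp, the lipid transfer protein of VLDL assembly, read 11.91, 12.17 and 11.65 in livers at 24 h, 13.46, 13.64 and 13.12 at 48 h, and 13.10, 12.95 and 13.18 in sham. All 24 h livers lay below all others, while the 48 h and sham ranges overlapped. Mttp was 2.24-fold lower at 24 h than in sham (log2 difference -1.16 ± 0.173 SE, adjusted p = 0.00261). It was 2.83-fold higher at 48 h than at 24 h (1.5 ± 0.173, adjusted p = 0.00133), and the difference of 48 h from sham was 0.33 (adjusted p = 0.283). A further Mttp probe set gave -1.04 at 24 h against sham (adjusted p = 0.0252) and 1.60 at 48 h against 24 h (adjusted p = 0.00579). Leaving out any 1 array kept both calls, with adjusted p up to 0.0117 at 24 h. The rank product test, which the study's design text names, gave adjusted p = 0.337 for Mttp at 24 h and 0.207 for 48 h against 24 h. Of 10 hepatocyte markers, 3 were called lower at 24 h (Fga, Cps1 and Tat) and 0 higher. Over all genes, 32.9% were called and 15% called lower. Of the 7 not called, Alb (0.12), Ttr (0.06) and Hamp (0.01) were slightly above sham. F2 (-0.03), Cyp2e1 (-0.05), Ahsg (-0.19) and Fgb (-0.65) were below it. The summed level of the 10 markers was 18.74 to 18.80 at 24 h and 18.91 to 18.97 in sham, and their part in the Mttp values was not tested.

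Apob, the structural protein of VLDL, read 13.47, 13.41 and 13.45 in livers at 24 h, 13.99, 14.10 and 12.55 at 48 h, and 14.18, 14.65 and 14.91 in sham. Every GalN liver was below every sham liver. The difference from sham was -1.13 ± 0.408 at 24 h (adjusted p = 0.0719) and -1.03 ± 0.408 at 48 h (adjusted p = 0.168), so neither passed the threshold of 0.05. The spread came mostly from array C at 48 h, the array with the actin gap of 2.56, and the part of RNA quality in that value was not tested. Without that array, Apob was called at 24 h (-1.13, adjusted p = 0.00431) and stood at -0.53 at 48 h (adjusted p = 0.145). A further, dimmer Apob probe set averaged 5.68 ± 0.18 at 24 h, 5.90 ± 0.78 at 48 h and 7.37 ± 0.19 in sham livers (SD, n = 3). That set passed at 24 h (-1.69, adjusted p = 0.0128) and not at 48 h (-1.47, adjusted p = 0.0556).

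The promoters of both assembly genes are shown because these genes had the largest differences from sham at 24 h among the 10. The sequences are from RefSeq (GRCm38.p6), 150 bases ending just before the first listed start of each gene, 5′ to 3′ on the gene's strand. Apob lies on the plus strand at chr12:7977527-7977676 and Mttp on the minus strand at chr3:138143419-138143568. Capitals mark matches to 4 short motifs searched on both strands in 250 bases before the start: CAAAGNNC, the core of sites bound by HNF4-type receptors; TTGCNNAA, a C/EBP-type site; TGTTTAC, a FOXA core; and TATAAA.
Apob: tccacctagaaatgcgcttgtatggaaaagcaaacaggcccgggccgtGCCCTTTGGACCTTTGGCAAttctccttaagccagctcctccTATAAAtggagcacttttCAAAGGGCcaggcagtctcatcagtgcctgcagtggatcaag
Mttp: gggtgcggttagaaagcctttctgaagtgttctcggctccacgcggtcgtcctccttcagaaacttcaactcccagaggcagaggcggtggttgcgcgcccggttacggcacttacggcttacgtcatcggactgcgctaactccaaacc
Apob held 3 matches to the HNF4-type core, and the C/EBP-type match overlaps the middle one. Mttp held none of the 4 motifs in these letters. Of 32851 promoter windows of the same 250 bases, 15.38% held the HNF4-type core, 9.56% the C/EBP-type site, 12.37% TATAAA and 3.17% the FOXA core. A match describes the letters only and is not evidence of binding.

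Of the HDL apolipoproteins, Apoa1 showed no called difference between liver groups in its brightest probe set. It read 15.80, 16.22 and 16.28 in livers at 24 h, 16.24, 16.36 and 16.24 at 48 h, and 16.31, 16.26 and 16.42 in sham, close to the highest value of any probe set, and the groups overlapped. Its interval at 24 h against sham ran from -0.54 to 0.07. Further Apoa1 sets averaged 15.24, 15.60 and 15.95 at 24 h, 15.49, 15.64 and 15.79 at 48 h, and 15.50, 15.77 and 15.98 in sham. Over the comparisons of both organs, the first of these sets gained 1 call and the second 1. Apoa2, the second most abundant HDL protein, read 15.90, 15.79 and 16.00 at 24 h, 15.51, 15.55 and 15.38 at 48 h, and 15.88, 15.80 and 15.78 in sham. The 48 h livers lay below all others. Apoa2 was 1.27-fold lower at 48 h than in sham (-0.34 ± 0.0763, adjusted p = 0.0354) and 1.34-fold lower than at 24 h (-0.42, adjusted p = 0.007). Apom, which carries sphingosine 1-phosphate in HDL, read 14.49, 14.17 and 14.13 in livers at 24 h, 13.84, 14.04 and 14.14 at 48 h, and 14.04, 13.90 and 13.74 in sham. All 24 h livers were above all sham livers, but the difference of 0.37 ± 0.133 did not pass (adjusted p = 0.0711).

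Apoa4, Apoa5 and Apoc3 bear on triglyceride handling, and Apoa1, Apoc3, Apoa4 and Apoa5 follow each other on chromosome 9. Apoc3, an inhibitor of triglyceride hydrolysis and remnant uptake, read 15.71, 15.61 and 15.66 in livers at 24 h, 15.30, 15.40 and 15.40 at 48 h, and 15.68, 15.65 and 15.62 in sham. Its 48 h livers were again the lowest. Apoc3 was 1.22-fold lower at 48 h than in sham (-0.29 ± 0.0552, adjusted p = 0.0214) and 1.22-fold lower than at 24 h (-0.29, adjusted p = 0.0079). Apoa5, an activator of lipoprotein lipase, read 13.56, 14.50 and 14.52 at 24 h, 15.04, 15.09 and 14.69 at 48 h, and 14.57, 14.76 and 14.93 in sham. The 24 h values were the lowest, with array A far below the others, and the difference from sham was -0.56 (adjusted p = 0.156). Apoa4, a lipoprotein protein of intestine and rodent liver, read 13.54, 13.08 and 13.52 in livers at 24 h, 13.30, 13.82 and 14.40 at 48 h, and 12.86, 11.66 and 13.39 in sham. The groups overlapped, and differences from sham of 0.75 at 24 h (adjusted p = 0.269) and 1.2 at 48 h (adjusted p = 0.159) did not pass. The 4 neighbours on chromosome 9 therefore did not share a call at either time.

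Apoe, the ligand by which lipoprotein remnants bind receptors of the LDL receptor family, read 15.48, 15.42 and 15.44 in livers at 24 h, 15.08, 15.13 and 14.84 at 48 h, and 15.40, 15.43 and 15.42 in sham. The 24 h and sham livers were nearly alike, and the 48 h livers lay below both. Apoe was 1.32-fold lower at 48 h than in sham (-0.40 ± 0.0803, adjusted p = 0.0254) and 1.34-fold lower than at 24 h (-0.43, adjusted p = 0.00788). Apoh, a phospholipid-binding plasma protein also called beta-2-glycoprotein I, read 15.10, 14.99 and 15.13 at 24 h, 14.78, 14.75 and 14.51 at 48 h, and 14.95, 15.03 and 14.93 in sham. The 48 h livers were again the lowest. Apoh was 1.31-fold lower at 48 h than at 24 h (-0.39, adjusted p = 0.0148), and its difference of -0.29 from sham did not pass (adjusted p = 0.0879). The Apoh call was lost without 24 h array C (adjusted p = 0.0501), and a dimmer Apoh probe set gave 0.68 at 48 h against 24 h (adjusted p = 0.516). That dimmer set averaged 5.79 ± 0.51 at 24 h, 6.47 ± 1.4 at 48 h and 7.68 ± 0.21 in sham livers (SD, n = 3). Its lowest mean was thus at 24 h, unlike that of the brightest set.

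The 48 h calls against sham in Apoa2, Apoc3 and Apoe were small and close to the threshold. Without sham array A, B or C, none of the 3 was called, with adjusted p from 0.0867 to 0.107 for Apoa2, 0.0611 to 0.0785 for Apoc3 and 0.064 to 0.0902 for Apoe. Without 48 h array A the values were 0.0805 for Apoa2, 0.0633 for Apoc3 and 0.0539 for Apoe, and Apoa2 was also not called without 48 h array B (0.0543), 48 h array C (0.0515) or 24 h array A (0.0519). Quantile normalization across the livers gave -0.15 for Apoa2, -0.07 for Apoc3 and -0.17 for Apoe, none called. With array letters as a block none of the 3 was called either. Of the 4 lower calls at 48 h against 24 h, those of Apoa2, Apoc3 and Apoe held without any 1 array. Under quantile normalization those of Apoc3 (adjusted p = 0.0602) and Apoe (0.0562) were lost, in a fit of all 18 arrays those of Apoc3 (0.398) and Apoh (0.229), with median centring that of Apoc3 (0.171), with only the arrays compared that of Apoh (0.0521), and under rank product all 4. Of 10 hepatocyte markers, 4 were called lower at 48 h against sham and 0 higher. Over all genes, 10.2% were called and 3.94% called lower. The 4 were Ttr (-0.28), Ahsg (-0.39), Cps1 (-0.48) and F2 (-0.54). Of the 6 not called, Hamp was above sham (0.73, adjusted p = 0.0728). Alb (-0.13), Fgb (-0.1), Cyp2e1 (-0.26), Fga (-0.32) and Tat (-0.61) were below it. The summed level of the 10 markers on the log2 scale was 18.62 to 18.87 at 48 h and 18.91 to 18.97 in sham, and none was at the floor. The part of hepatocyte content in the 48 h values was not tested.

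The promoters of 3 genes that were lower at 48 h than at 24 h are shown with the same marking. The lines give Apoa2 (plus strand, chr1:171224904-171225053), Apoe (minus strand, chr7:19699189-19699338) and Apoh (plus strand, chr11:108395147-108395296), from the same RefSeq table.
Apoa2: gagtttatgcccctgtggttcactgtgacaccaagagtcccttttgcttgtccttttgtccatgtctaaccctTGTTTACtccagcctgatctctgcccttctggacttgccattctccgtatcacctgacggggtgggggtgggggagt
Apoe: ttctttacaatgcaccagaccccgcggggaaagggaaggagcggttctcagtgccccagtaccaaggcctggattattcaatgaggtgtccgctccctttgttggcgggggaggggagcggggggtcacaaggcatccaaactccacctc
Apoh: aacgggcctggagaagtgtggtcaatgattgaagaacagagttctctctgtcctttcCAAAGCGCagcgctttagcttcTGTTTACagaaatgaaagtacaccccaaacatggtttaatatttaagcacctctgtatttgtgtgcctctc
Apoa2 and Apoh each held 1 FOXA core, Apoa2 also 1 TATAAA upstream of the bases shown, Apoh also 1 HNF4-type core, and Apoe none of the 4 motifs. The table held promoters for 9 of the 10 genes, without Apoc3.

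Among all liver genes, those with the profile most like Mttp over the 9 arrays were Slc38a9 (Pearson r = 0.994), Cpt1a (0.993) and Smpd2 (0.984). For Apoe they were Cyp2f2 (0.988), F2 (0.988) and Tecr (0.987), for Apoa2 Serpina1b (0.983), Serpina1c (0.977) and Nsd2 (0.964), and for Apoc3 Nup62 (0.981), Tm7sf2 (0.979) and Serpinc1 (0.978). These are the highest of 12061 genes searched over 9 arrays in 3 groups, and they are given as a description. F2, the prothrombin gene, is among the 4 hepatocyte markers called lower at 48 h.

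Beside the counts of the pathway lists in liver stand the shares over all genes, 32.9% called and 15% called lower at 24 h, and 10.2% called and 3.94% called lower at 48 h. The shares of the lists called in either direction at 24 h lay near that of all genes, and nothing is read from them about a list. Of 14 measured genes of VLDL assembly and export, 5 were lower at 24 h, 0 higher and 9 not called (median -0.52, against 0.01 over all genes). Cideb, a lipid droplet protein that takes part in VLDL lipidation, read 11.04, 11.12 and 11.09 at 24 h, 12.65, 12.69 and 12.43 at 48 h, and 13.00, 13.06 and 12.99 in sham. It was 3.83-fold lower at 24 h (adjusted p = 4.63e-05) and 1.34-fold lower at 48 h (adjusted p = 0.0243). Dgat1, an enzyme of the last step of triglyceride synthesis, read 4.59, 5.87 and 5.96 at 24 h, 8.51, 8.37 and 8.92 at 48 h, and 8.16, 8.71 and 8.47 in sham, 7.87-fold lower at 24 h than in sham (adjusted p = 0.00138). The second such enzyme, Dgat2, was 1.88-fold lower at 24 h, and Aadac, an esterase of the endoplasmic reticulum, 2.14-fold lower. At 48 h, 3 of the 14 were lower and 0 higher: Cideb, Aadac (1.81-fold) and P4hb (1.91-fold, adjusted p = 0.00488), the protein disulfide isomerase that is the partner subunit of Mttp. P4hb was the fifth gene called lower at 24 h as well (1.62-fold, adjusted p = 0.00226), named here after its value was seen. Dgat1, Cideb and Sar1b, a GTPase of vesicle budding, were higher at 48 h than at 24 h. At 24 h the calls of Cideb, Dgat1, Aadac and P4hb held without any 1 array, and that of Dgat2 was lost without sham array B. At 48 h the calls held in 9 (P4hb), 5 (Cideb) and 4 (Aadac) of 9 such fits.

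Of 12 further apolipoprotein genes, 4 were lower at 24 h and 0 higher, with 32.9% of all genes called and 15% called lower. Apof, a lipid transfer inhibitor, was 3.54-fold lower (adjusted p = 0.00055) and Apon 4.56-fold lower (adjusted p = 0.00109). The other two, Saa2 (24.4-fold, adjusted p = 0.0428) and Saa4 (3.03-fold, adjusted p = 0.0159), encode serum amyloid A proteins carried on HDL. For Saa2, the 24 h livers read 7.89, 10.50 and 10.61, and in sham array A stood apart at 11.05 beside 15.82 and 15.94. The Saa2 call held in only 1 of the 9 fits that left out an array (adjusted p up to 0.132), whereas those of Apof and Apon held in all 9. At 48 h only Apoc1, a small exchangeable apolipoprotein, was called in this list (1.22-fold lower, adjusted p = 0.0132, lost without sham array B), with 7 of 12 at an unadjusted p under 0.05.

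Over all liver genes, 32.9% were called at 24 h (15% lower) and 10.2% at 48 h (3.94% lower). Of 9 measured genes of HDL formation and remodelling, 3 were lower at 24 h and 3 others at 48 h, with 0 higher. At 24 h they were Lipg, endothelial lipase (at least 25.9-fold), Bmp1, a protease that trims pro-apolipoprotein A-I (4.35-fold), and Scarb1, the HDL receptor (1.81-fold). The calls of Lipg and Scarb1 held without any 1 array, and that of Bmp1 did not without 24 h array C or sham array B. At 48 h they were Lcat, which esterifies HDL cholesterol (1.55-fold), Pon1, paraoxonase of HDL (1.47-fold), and Pltp, phospholipid transfer protein (1.32-fold). These held in 2 (Lcat), 7 (Pon1) and 4 (Pltp) of 9 fits without 1 array. Among 8 regulators of triglyceride lipolysis, Lpl, lipoprotein lipase, read 9, 9.65 and 9.67 at 24 h, 9.91, 10.51 and 9.86 at 48 h, and 7.87, 8.31 and 8.35 in sham. It was 2.40-fold higher at 24 h (adjusted p = 0.01) and 3.79-fold higher at 48 h (adjusted p = 0.00848), with every GalN liver above every sham liver. Gpihbp1, its anchor on capillary endothelium, was 2.36-fold higher at 24 h, and Lmf1, needed for its folding, was 2.33-fold lower at 24 h and 1.82-fold lower at 48 h. The calls of Lpl and of Lmf1 at 24 h held without any 1 array, that of Gpihbp1 in only 1 of 9 such fits. Of all 12062 liver genes tested, 2161 were called higher at 24 h and 754 at 48 h. Macrophage markers were called higher in 6 of 10 at 24 h and 3 of 10 at 48 h. Their summed levels were 14.40 to 14.61 at 24 h, 14.08 to 14.30 at 48 h and 12.97 to 13.59 in sham. Endothelial markers were called higher in 5 of 8 at 24 h and 1 of 8 at 48 h, with sums of 10.40 to 11.58, 10.56 to 10.67 and, in sham, 9.92 to 10.10. The part of these cell types in the values of Lpl, Gpihbp1 and the scavenger receptors was not tested.

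Of 12 uptake receptors tested in liver, Cd36, a scavenger receptor for fatty acids and modified lipoproteins, read 9.34, 9.33 and 9.79 at 24 h, 12.03, 11.51 and 11.87 at 48 h, and 9.50, 9.86 and 9.79 in sham. All 48 h livers lay above all others, and Cd36 was 4.25-fold higher at 48 h than in sham (adjusted p = 0.00364). Stab1, a scavenger receptor of sinusoidal endothelium and macrophages, was 2.14-fold higher at 24 h and 1.98-fold higher at 48 h. Its call at 24 h held without any 1 array, and that at 48 h in 3 of 9 such fits (adjusted p up to 0.0947). At 24 h Lrp1, a remnant receptor, was 2.32-fold lower and Scarb1 1.81-fold lower, and the other 9 were not called. The Lrp1 call was lost without any 1 of 6 of the 9 arrays, and the mean of all its probe sets gave a value above 0. The call of Cd36 held without any 1 array. Over all liver genes, 32.9% were called at 24 h and 15% called lower. Of 20 transcription factors known to act on apolipoprotein genes, 7 were lower at 24 h and 1 higher. The largest was Srebf1, a regulator of lipid synthesis, which read 7.64, 9.15 and 8.80 at 24 h, 10.55, 11.54 and 9.63 at 48 h, and 12.45, 12.11 and 11.43 in sham (11-fold lower at 24 h, adjusted p = 0.00426). Ppargc1a, a coactivator of fasting metabolism, was 6.10-fold lower, Nr0b2, a repressor induced by bile acids, 3.46-fold lower and Creb3l3, a liver factor of triglyceride metabolism, 2.92-fold lower. The calls of Srebf1 and Creb3l3 held without any 1 array, those of Ppargc1a in 6 and Nr0b2 in 3 of 9 such fits. The higher one was Nr2f1, at least 1.70-fold. At 48 h limma called 0 of these 20 against sham, with 2 at an unadjusted p under 0.05.

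**Figure D2:**
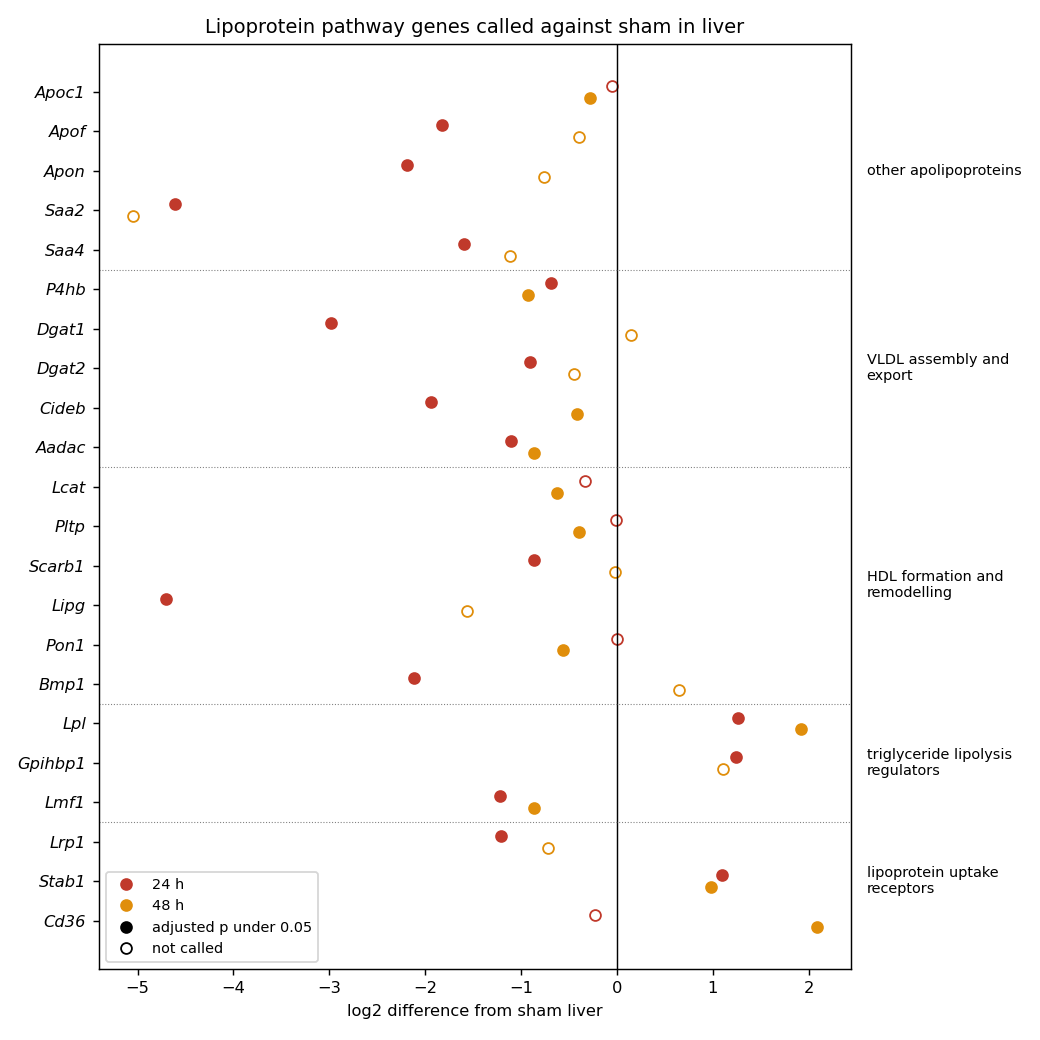
Log2 difference from sham liver (x axis) of the lipoprotein pathway genes called at either time, by list and without the transcription factors, for 24 h (red) and 48 h (orange), filled where the adjusted p was under 0.05 and open where it was not. Most called differences at 24 h lie below 0, with Lpl, Gpihbp1 and Stab1 above 0, and Cd36 is the highest point at 48 h.

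In kidney, Apoe was the 1 gene of the 10 that limma called against sham, and it was higher at both times. At 24 h limma called 1 of 10, with 5.3% of the 11990 genes tested called (2.21% higher), and at 48 h again 1 of 10, with 2.77% called (1.31% higher). The share of higher genes among the calls at 24 h was 41.7%, against 52.3% after quantile normalization and 30.4% after median centring. At 48 h against 24 h Apom was the 1 gene called, and it was higher, with 1.62% of all genes called and 0.959% called higher. The median difference of the 10 genes from sham was 0.38 at 24 h and 0.42 at 48 h, and that of all genes tested was 0 at both times.

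Apoe read 11.64, 11.27 and 11.09 in kidneys at 24 h, 12.13, 12.32 and 11.98 at 48 h, and 10.46, 10.32 and 10.53 in sham. The 3 groups did not overlap, in the order sham, 24 h, 48 h. Apoe was 1.86-fold higher at 24 h than in sham (0.90 ± 0.152, adjusted p = 0.0259) and 3.26-fold higher at 48 h (1.70 ± 0.152, adjusted p = 0.00786). The step from 24 h, 0.81 at 48 h against 24 h, did not pass (adjusted p = 0.0535). The call at 48 h held without any 1 array and under the rank product test (adjusted p = 0.00625). The call at 24 h was lost under rank product (adjusted p = 0.146), with the replicate block (0.0643) and with only the arrays compared (0.0754), and without 24 h array B (adjusted p = 0.0697) or sham array A (0.0704), B (0.0967) or C (0.0592). The actin gap was 1.48 to 1.64 in kidneys at 24 h, 1.63 to 1.75 at 48 h and 1.72 to 2.02 in sham, so all 24 h kidneys lay below all sham kidneys, and its part in the Apoe values was not tested. The genes with the most similar profile over the 9 kidney arrays were Lgals3bp (r = 0.987), Cdk18 (0.969) and Rsph9 (0.963), out of 11989 searched.

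Apoe is also made by macrophages. Of 9 macrophage markers tested in kidney, limma called 0 at either time against sham, with 0 at 24 h and 1 at 48 h at an unadjusted p under 0.05. Their summed level on the log2 scale was 10.79 to 11.37 at 24 h, 11.06 to 11.49 at 48 h and 10.92 to 11.26 in sham, so the groups overlapped. For C1qa alone of the 5 markers plotted, all 48 h kidneys lay above all sham kidneys. The lowest 48 h value was 7.73 and the highest sham value 7.70, and the difference was not called (adjusted p = 0.257). The part of macrophages in the Apoe values was not tested. Cd68, Clec4f and Marco were at the floor in all kidney groups. Of 10 hepatocyte markers in kidney, 0 were called at 24 h, with 5.3% of all genes called, and 1 at 48 h, with 2.77%. The 1 was Fgb, at 3.25 against 2.5 in sham, near the floor. Uncalled, Fga was 0.66 above sham at 24 h and 0.84 at 48 h, and Alb was -0.13 and -0.47 from sham. Ttr (15.35) and Cyp2e1 (15.16) were already high in sham kidneys. The part of these markers in the Apoe values was not tested. F2, Ahsg, Cps1 and Tat were at the floor in all kidney groups.

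**Figure D3:**
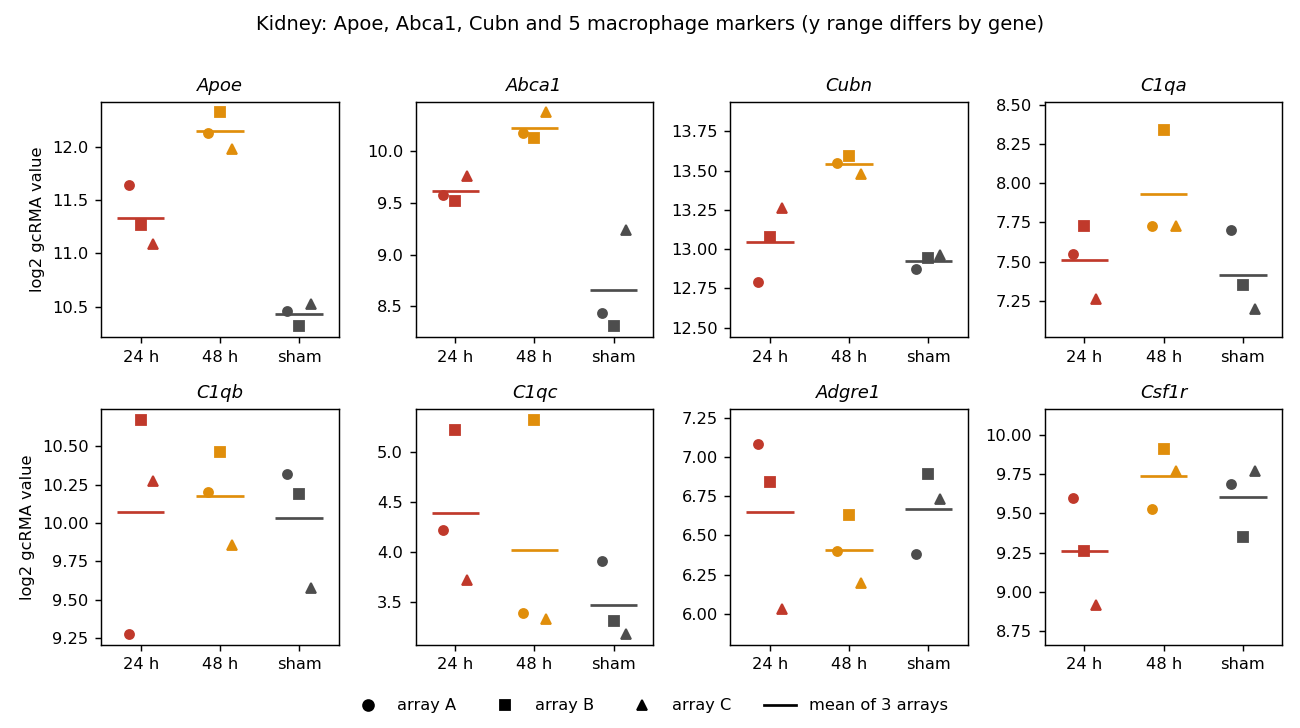
Log2 gcRMA values (y axis, range differs by gene) of Apoe, Abca1, Cubn and 5 macrophage markers in kidney at 24 h, at 48 h and in sham, with 1 point per array and a line at the mean of 3 arrays. The groups of Apoe do not overlap, while those of the macrophage markers do, except C1qa at 48 h (7.73 to 8.34) against sham (7.20 to 7.70), which was not called.

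Apom read 11.12, 11.41 and 11.07 in kidneys at 24 h, 12.16, 12.25 and 12.04 at 48 h, and 11.69, 11.66 and 11.25 in sham. The 48 h kidneys lay above all others, and 24 h and sham overlapped. Apom was 1.93-fold higher at 48 h than at 24 h (0.95 ± 0.143, adjusted p = 0.0343). Against sham, the differences of 0.61 at 48 h (adjusted p = 0.0751) and -0.34 at 24 h (adjusted p = 0.208) did not pass. The 48 h difference was called with array weights (0.58, adjusted p = 0.0282) and in 4 other settings of the same probe set or the mean of sets, with adjusted p between 0.0425 and 0.0493. A further Apom probe set averaged 10.23 ± 0.25 at 24 h, 11.04 ± 0.10 at 48 h and 10.22 ± 0.22 in sham (SD, n = 3), which gave 0.82 at 48 h against sham (adjusted p = 0.0486) and 0.81 at 48 h against 24 h (adjusted p = 0.054). The call at 48 h against 24 h was lost without any 1 of 7 of the 9 arrays, all but 24 h array B and sham array C, with adjusted p up to 0.108. Among 10 proximal tubule markers at 48 h against sham, 1 was called higher (Cubn) and 1 lower (Slc22a6, -0.55), with a summed level of 18.02 to 18.11 at 48 h and 17.98 to 18.19 in sham.

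**Figure D4:**
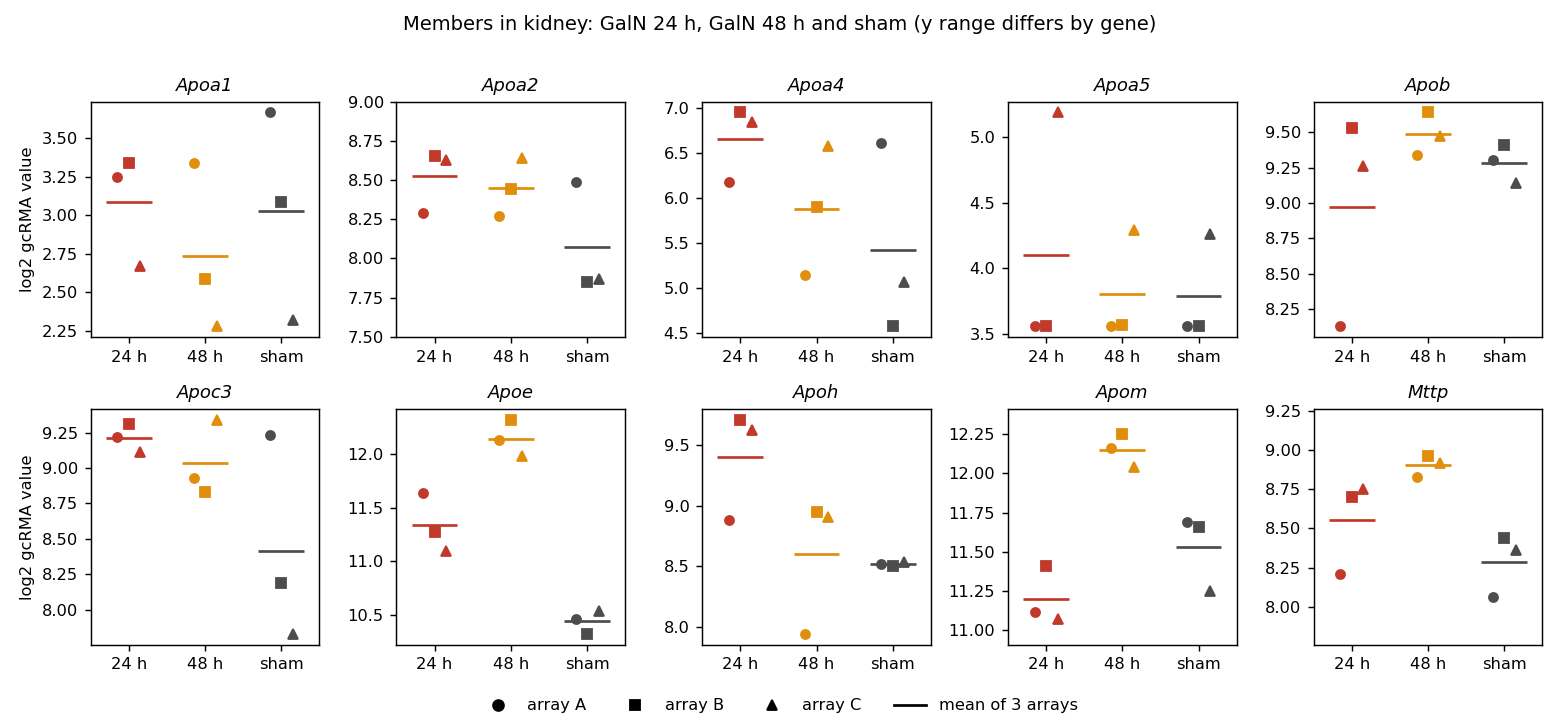
Log2 gcRMA value of each of the 10 genes (y axis, range differs by gene) in kidney at 24 h, at 48 h and in sham, with 1 point per array (circle A, square B, triangle C) and a line at the mean of 3 arrays. Apoe stands in 3 separate steps, the 48 h values of Apom and Mttp lie above both other groups, and Apoa1 and Apoa5 lie near background.

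The other kidney values were not called by limma as fitted here. Mttp read 8.21, 8.70 and 8.75 at 24 h, 8.83, 8.96 and 8.92 at 48 h, and 8.06, 8.44 and 8.36 in sham, so all 48 h kidneys were highest, with a difference from sham of 0.62 (adjusted p = 0.096). With array weights Mttp was called (0.60, adjusted p = 0.0304), and it was also called without 24 h array A. Apoh read 8.88, 9.71 and 9.63 at 24 h, 7.94, 8.95 and 8.91 at 48 h, and 8.52, 8.50 and 8.53 in sham, with all 24 h kidneys above sham and a difference of 0.89 (adjusted p = 0.151). Apob was 8.13, 9.53 and 9.26 at 24 h, 9.34, 9.64 and 9.47 at 48 h, and 9.30, 9.41 and 9.14 in sham, and overlapped throughout. Array A at 24 h was the lowest of its group for Apob, Mttp, Apoh, Apoa2 and Apoa4. Apoa2, Apoa4 and Apoc3 had the same shape in sham, where array A was above B and C: Apoc3 read 9.23, 8.19 and 7.83 in sham kidneys, Apoa2 8.49, 7.85 and 7.87, and Apoa4 6.61, 4.57 and 5.06. Their differences from sham ran from 0.38 to 1.24 at the 2 times, with adjusted p from 0.214 to 0.732. Apoa1 and Apoa5 stayed at background in most arrays, and no fold is given. The further Apoa1 sets averaged 3.69, 3.70 and 3.20 in kidneys at 24 h, 3.53, 3.32 and 2.80 at 48 h, and 3.29, 2.71 and 2.75 in sham. All their sham kidney values were at background.

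At 24 h limma called 5.3% of the 11990 genes tested in kidney, 265 higher and 371 lower. At 48 h it called 2.77%, 157 higher and 175 lower. Among pathway genes in kidney, Abca1, the transporter that loads cholesterol onto apolipoproteins, was the 1 gene of 9 in HDL formation called at 48 h. It read 9.57, 9.52 and 9.76 at 24 h, 10.17, 10.12 and 10.37 at 48 h, and 8.44, 8.31 and 9.24 in sham, 2.94-fold higher at 48 h (adjusted p = 0.0299). Of 13 uptake receptors, Cubn, the endocytic receptor of filtered apolipoprotein A-I, was higher at 48 h (13.55, 13.59 and 13.48 at 48 h, and 12.87, 12.94 and 12.96 in sham, adjusted p = 0.0405), and Sdc1 (1.71-fold) and Lsr (1.74-fold) at 24 h. Cideb (1.53-fold), Aadac (1.45-fold) and Tm6sf2 (at least 1.90-fold) were lower at 24 h, 3 of 14 genes of VLDL assembly and export. All 7 of these kidney calls were near the threshold: they held in 4 (Abca1, Cideb), 2 (Cubn) or 1 (Sdc1, Lsr, Aadac, Tm6sf2) of 9 fits without 1 array. None of the 8 further apolipoprotein genes, 8 lipolysis regulators or 19 transcription factors tested in kidney was called at either time against sham, with at most 2 of a list at an unadjusted p under 0.05.

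The responses of kidney and liver to GalN were compared directly, as the difference from sham in kidney minus that in liver. The fit of all 18 arrays treats the organs as separate samples, since no label ties a liver array to a kidney array. If both organs came from the same mice, that pairing is ignored. At 24 h, 3 of 10 genes differed, with 30.3% of 12453 genes called, and at 48 h 2 of 10, both higher in kidney, with 13.1% called and 4.67% higher in kidney. The higher share of the 48 h calls was 35.7%, against 46.4% after quantile normalization and 54.6% after median centring. Mttp differed at 24 h by 1.43 ± 0.245, at 0.26 in kidney and -1.16 in liver (adjusted p = 0.000624). Apoe differed by 0.87 ± 0.177 at 24 h (adjusted p = 0.00205) and by 2.10 ± 0.177 at 48 h (adjusted p = 2.76e-05), where it was 1.70 in kidney and -0.40 in liver. Apom differed by -0.71 at 24 h, at -0.34 in kidney and 0.37 in liver (adjusted p = 0.0158), but not under median centring (-0.57, adjusted p = 0.0875). The further Apom probe set averaged 10.23 at 24 h and 10.22 in sham kidneys, so it showed no kidney decrease. In livers that set averaged 13.16 at 24 h and 12.84 in sham. Apoa2 differed by 0.72 at 48 h, at 0.38 in kidney and -0.34 in liver (adjusted p = 0.047). That last call was lost without any 1 of 15 of the 18 arrays (adjusted p up to 0.117), whereas the calls of Mttp, Apoe and Apom held without any 1 array. For the remaining genes, read from their brightest sets, the intervals of the difference included 0 or their adjusted p was above 0.05. This does not show that the organs responded alike. The dimmer Apob probe set averaged 4.47, 4.72 and 4.61 in kidneys at 24 h, 48 h and in sham, and 5.68, 5.90 and 7.37 in livers. Its kidney values were at background in 2 of 3 arrays at 24 h and 1 of 3 at 48 h. Over the comparisons of both organs that set gained 3 calls.

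**Figure D5:**
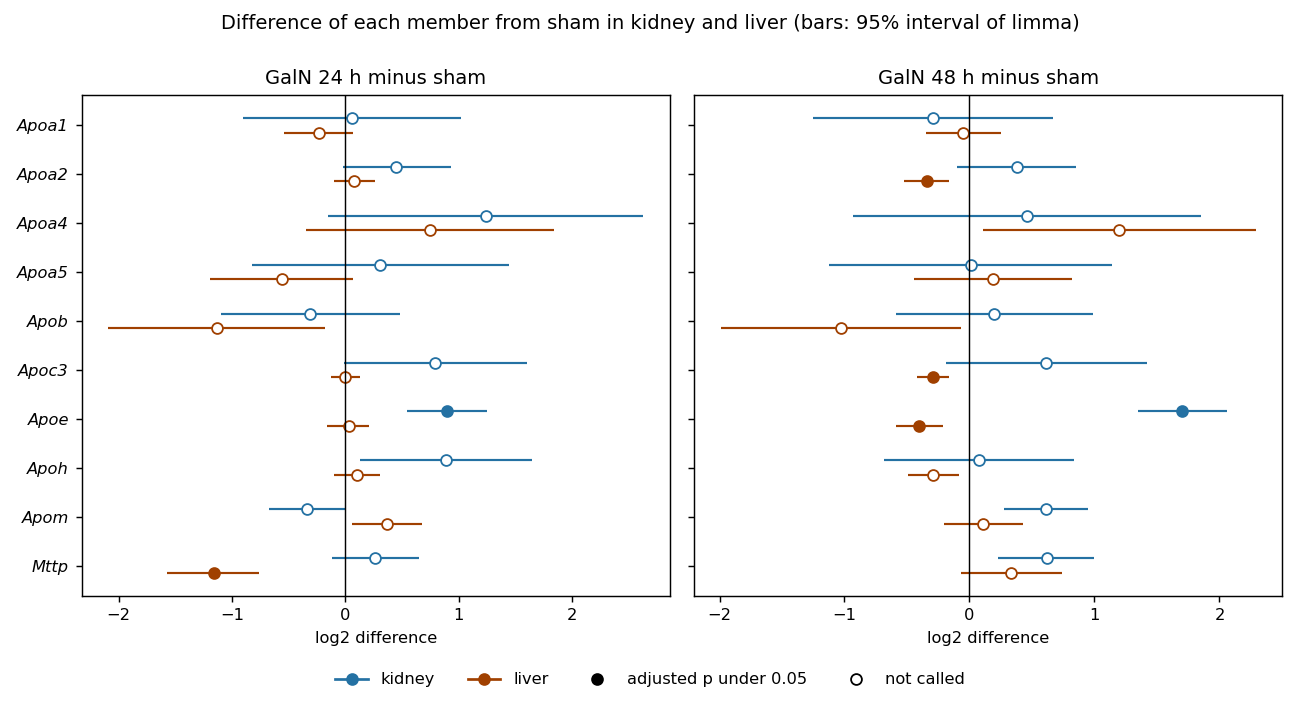
Log2 difference from sham (x axis) of each gene in kidney (blue, upper) and liver (brown, lower) at 24 h and 48 h, with bars for limma's 95% interval and filled points where the adjusted p was under 0.05. Apoe is right of 0 in kidney at both times and left of 0 in liver at 48 h, and Mttp in liver is left of 0 at 24 h.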

How the data were processed

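The Affymetrix mouse genome arrays were preprocessed by the authors with the R packages affy and gcRMA, per the labels, and the deposited values are log2 expression values; versions are not given in the sources used here. The label field names Cy3, although these are single-colour arrays. Of 45101 probe sets, 34945 are annotated to 1 gene, 932 to several and 9160 to none, and 64 are control sets. Each gene was represented by its set with the highest mean over 18 arrays. Genes above the array median in at least 3 arrays of a fit were tested with limma 3.58.1 (R 4.3.3; trend in the variance, two-sided), with 9 arrays per organ or all 18 for comparisons between organs. P-values were Benjamini-Hochberg adjusted over all genes tested and called under 0.05. A value was taken as background where it was exactly equal in a further array of that gene, or under 1 log2 unit from the minimum, and folds against groups with such values are given as bounds. The test was tested on simulated data, whose outcome is not reported here. The number of arrays limits the precision.

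No label ties array letters to a shared animal, and samples were not paired in the main fits. In 18 same-letter pairs within an organ, the deviations from group means correlated with r of -0.117 to 0.239, 1 above 0.1. In 9 liver and kidney pairs of the same treatment, r was -0.07 to 0.267, with 2 above 0.1, both in sham. Low correlations cannot exclude that a liver and a kidney came from the same mouse. Alternatives were other filters, scalings, variance models, probe sets, array subsets, leaving out each array, a replicate block and rank product with 100 permutations. All 10 genes are named, and of the 6 pathway lists up to 4 called genes per list, comparison and direction, largest first. The genes and lists were chosen with earlier results of these data known. Tables were read with Python 3.11.15 and pandas 2.3.3, and plots drawn with matplotlib 3.10.9. Quantitative PCR was not analysed here.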

Additional observations from a re-analysis of the deposited data

Results flagged for a closer look

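In total 5 differences between the organs passed the test of the difference itself (limma, all 18 arrays, kidney response minus liver response to GalN). At 24 h they were 1.43 for Mttp (adjusted p = 0.000624), 0.87 for Apoe (adjusted p = 0.00205) and -0.71 for Apom (adjusted p = 0.0158). At 48 h they were 2.10 for Apoe (adjusted p = 2.76e-05) and 0.72 for Apoa2 (adjusted p = 0.047). The Apoa2 call held in only 3 of 18 fits without 1 array. For Apom, the further probe set showed no kidney decrease at 24 h (10.23, against 10.22 in sham). Apoe at 48 h was higher than sham in 3 of 3 kidneys and lower than sham in 3 of 3 livers. The liver difference of Apoe was -0.40, and its call held in 5 of 9 fits without 1 array (adjusted p up to 0.0902). With quantile normalization it was not called.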

How the results depend on the processing

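Of 2076 values of the 10 genes under alternatives, 1933 kept their side of the threshold, 47 of them changing sign while uncalled in both settings, 85 lost and 54 gained the call, and 4 that were called in at least 1 setting reversed; further probe sets were chosen after seeing the data. The reversed ones were all Apoh: liver at 48 h against 24 h with the mean of probe sets (0.14) and the dimmer set (0.68), and the dimmer set in kidney at 24 h against sham (-0.82) and at 48 h against 24 h (0.91). In kidney the dimmer set was at background in 3 of 3 arrays at 24 h, 3 of 3 in sham and 2 of 3 at 48 h. Among 43 pathway calls, recomputed as an addition after seeing the data, 18 held without any 1 array, and 1 reversed, Lrp1 in liver at 24 h with the mean of sets (0.7).

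Genes of the 10 called in liver at 24 h (1) were 2 with a filter at 5, the mean of sets, quantile normalization or only the arrays compared, 3 with median centring or all 18 arrays, 4 with array weights and 0 with rank product (2 unadjusted). In liver at 48 h (3) they were 7 with array weights, 1 without a filter, with all 18 arrays or only those compared, and 0 with quantile normalization (2 unadjusted), the replicate block (5) or rank product (2). In liver at 48 h against 24 h (5) they were 3 with quantile normalization or all 18 arrays and 0 with rank product (1). In kidney at 24 h (1) they were 0 with the replicate block (4 unadjusted), only the arrays compared (2) or rank product (5). In kidney at 48 h (1) they were 2 with a filter at 5, the mean of sets, median centring or all 18 arrays and 3 with array weights. In kidney at 48 h against 24 h (1) they were 2 with a filter at 5, either scaling, array weights or all 18 arrays, and 0 without a filter (3 unadjusted), with the replicate block (4), only the arrays compared (2) or rank product (5). Between organs at 24 h (3) they were 5 with array weights, and at 48 h (2) they were 4 with the mean of sets or array weights and 1 without a filter, with quantile normalization, the replicate block or only the arrays compared. Leaving out an array gave 1 to 2, 0 to 3 and 4 to 5 in the liver comparisons, 0 to 1, 1 to 2 and 0 to 1 in those of kidney, 3 to 5 and 1 to 3 between organs, and 10 in sham.

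Over all genes, rank product called 584, 293 and 468 in the liver comparisons and 164 and 214 in kidney at 24 h and 48 h. In liver at 48 h, 769 were called without a filter, 4727 with array weights, 605 with the replicate block, 2515 with all 18 arrays and 757 with only those compared. In kidney at 24 h, 285 were called without a filter, 143 with the block, 376 with all 18 arrays and 79 with only those compared. In kidney at 48 h, 131 were called without a filter, 512 with a filter at 5, 1248 with array weights, 49 with the block and 201 with all 18 arrays. In kidney at 48 h against 24 h, 64 were called without a filter, 4 with the block and 24 with only the arrays compared. Array weights called 4535 between organs at 48 h. Leaving out an array gave 2835 to 4654, 448 to 1599 and 2583 to 3465 in liver, 15 to 677, 29 to 469 and 1 to 162 in kidney, 3170 to 4437 and 1140 to 2079 between organs, and 5319 to 6419 in sham.

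Median centring shifted the median of all genes by -0.17 and -0.13 in liver at 24 h and 48 h, 0.14 and 0.13 between organs and 0.27 in sham; no cause was tested. The brightest sets lie near the top of the array scale, and whether they are compressed was not tested.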
